A study of Homo sapiens with 10 samples.

Results

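A group of 9 surface proteins that are used as markers of adhesion or progenitor state, CD44, PROM1, EPCAM, ALCAM, THY1, NT5E, ENG, MCAM and L1CAM, was followed in cell lines derived from BEAS-2B, an immortalized line of human bronchial epithelial cells. These 9 genes, of 18377 that have a transcript cluster of their own on the Affymetrix Human Gene 1.0 ST array, were taken by symbol from the array annotation. Where a gene had more than 1 cluster, the cluster with the highest mean over the 10 arrays was used. This was needed only for EPCAM, which had 2 clusters. Its cluster was thus chosen by its mean level over all arrays, 5.13 for the one used and 5.09 for the one left out, and not by a difference between groups. The list itself was drawn up with results of these arrays known, and the study had already listed L1CAM, NT5E and MCAM by their fold on these arrays.

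There were 3 Cr_large lines, 3 Cr_small lines, 3 control lines and the parental BEAS-2B cells, each on 1 array. The study's methods describe the Cr_large and Cr_small lines as cells exposed to 0.5 µM potassium chromate for 30 days, grown in soft agar for 3 weeks and picked as large colonies or as small colonies matched in size to the control colonies. The control lines came from colonies that arose in soft agar from untreated cells, and each line was expanded from a single colony in monolayer. The labels repeat the exposure text for every array, so the groups were taken from the titles. Each line is 1 clone, no repeat of the exposure is described, and the p-values therefore measure the spread between lines. All levels below are log2 values of normalized intensity, a unit of relative signal on which a difference of 1 is a doubling, and they are compared between lines for the same gene and not between genes.

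As background, these proteins fall into a few classes. L1CAM, ALCAM and MCAM are adhesion molecules of the immunoglobulin superfamily that bind like or unlike partners on neighbouring cells. NT5E (CD73), THY1 (CD90) and ENG (CD105) are the surface proteins by which mesenchymal stromal cells are commonly recognized. CD44 is the main receptor of hyaluronan. EPCAM is an adhesion molecule of most simple epithelia, and PROM1 (CD133) is a protein of membrane protrusions that is used to sort progenitor cells. Several of them are also used to sort tumor-initiating cells.

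Keratins of simple epithelium were at high levels on the arrays. Of 7 measured epithelial markers, KRT8 was at 12.45 ± 0.16 in the Cr lines and 11.70 ± 0.25 in the control lines and KRT18 at 12.16 ± 0.14 and 11.34 ± 0.14 (SD, n = 6 and 3). The KRT18 cluster, 8154725, was the brightest with that symbol alone. Its number is near that of TEK, 8154692, and far from those of KRT7 and KRT8, 7955613 and 7963567. Whether it measures KRT18 itself or a near-identical copy was not tested. CDH1 (E-cadherin) was at 4.93 in the Cr lines and 4.94 in the control lines and KRT5 at 5.49 in both, all under the median of all values on the arrays, 5.86. KRT19 ranged from 5.79 to 10.07 over the Cr lines and averaged 6.16 in the control lines, with no call (adjusted p = 0.235, limma). Its parental level was 7.58. CDH3 lay near the median, at 5.86 in the Cr lines and 5.93 in the control lines. The labelled bronchial epithelial type therefore rests here mainly on the keratins KRT7, KRT8 and KRT18, with CDH1 and KRT5 at a low signal. All 3 of these keratins, of the 7 markers, were higher in the Cr lines, where the KRT7 call (1.25-fold, adjusted p = 0.0433, limma) ended without any of 8 lines and in 4 other settings, at adjusted p up to 0.138. The summed linear intensity of the epithelial list was 11247 to 15541 over the Cr lines and 7600 to 9504 over the control lines, so it moved with the groups, and its part in the results below was not tested. All 6 endothelial markers had group means under the median of all values in every group, and none of them, of 6 hematopoietic or of 5 neural markers passed the test between the Cr and control lines. The hematopoietic marker PTPRC (CD45) was at 4.59 in the Cr lines and 4.55 in the control lines, although 2 of the 6 hematopoietic markers lay over the median in every group. Of 8 fibroblast markers, 3 or 4 lay over the median in every group, among them COL1A1, a collagen chain, at 10.99 in the Cr lines and 11.25 in the control lines (adjusted p = 0.817, limma). FAP, a surface protease, was the one that passed the test, at 4.99 in the Cr lines and 6.90 in the control lines (adjusted p = 0.00157, limma).

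At an adjusted p under 0.05 from limma, over all 28869 clusters, 3 of the 9 genes differed between the 6 Cr lines (the mean of the Cr_large and Cr_small means) and the control lines. L1CAM and NT5E were higher and ALCAM was lower, and of all clusters 5.33% were higher and 5.72% lower. The Cr_large lines alone had 2 of the 9 higher, L1CAM and NT5E, and none lower (3.33%, 4.11% and 7.44% of all clusters higher, lower and either). The Cr_small lines alone had 2 higher and 1 lower, the same 3 genes as all Cr lines together (3.79%, 4.47% and 8.26%). The control lines are shared by these comparisons. All 6 Cr lines lay above the 3 control lines for L1CAM, NT5E and CD44 and below them for ALCAM, where 8.85% of all clusters were wholly higher and 7.84% wholly lower. The median log2 difference of the 9 genes was 0.22, against 0.013 over all clusters. Since the genes were chosen with results known, these counts describe the list and no more. In these bulk samples, fewer cells with a marker and less RNA per cell cannot be told apart.

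**Figure D1:**
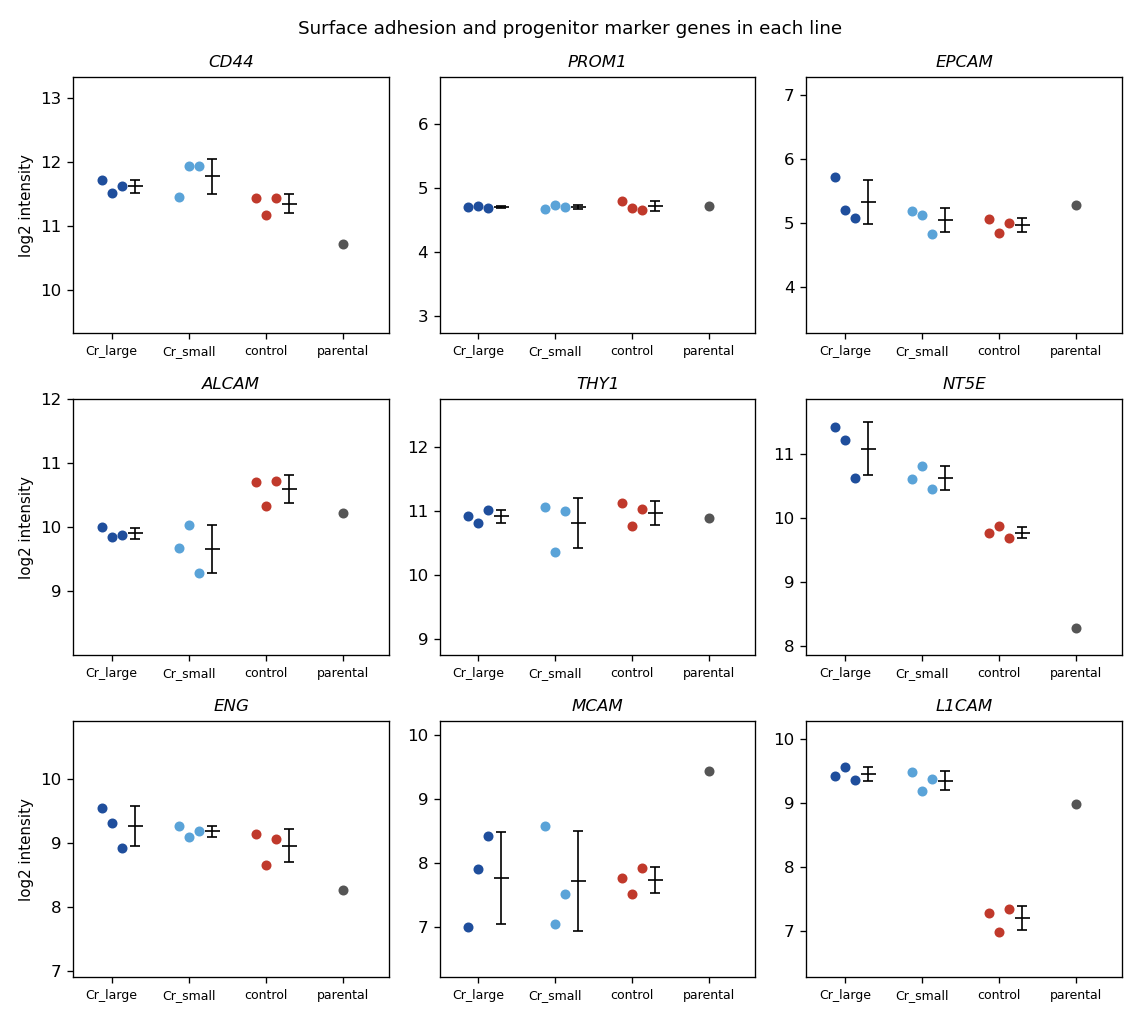
Log2 intensity (vertical axis, 4 units high in every panel) of the 9 genes in each Cr_large, Cr_small and control line and on the parental array (points), the bars giving mean and SD over the 3 lines of a group. L1CAM in the control lines lies between 6.99 and 7.34, below every other array, and MCAM is spread from 7.002 to 8.58 over the Cr lines.

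L1CAM, a neural adhesion molecule that guides axons and also occurs in carcinomas, had the largest difference among the 9 genes. It was at 9.43, 9.57 and 9.36 in Cr_large lines 1, 2 and 3, at 9.49, 9.20 and 9.38 in Cr_small lines 1, 2 and 3, at 7.29, 6.99 and 7.34 in control lines 1, 2 and 3 and at 8.99 in the parental cells. The Cr lines and the control lines were apart by more than the range within either. The Cr lines were 4.59-fold higher than the control lines (log2 difference 2.20, standard error 0.10, adjusted p = 2.19e-05, limma), and the call held under all 19 alternative settings. The fold was 4.75 for the Cr_large lines (adjusted p = 5.88e-05) and 4.43 for the Cr_small lines (adjusted p = 7e-05). The parental cells lay between the groups, nearer to the Cr lines: the Cr_large and Cr_small means were 1.38-fold and 1.29-fold above the parental array, and all 6 Cr lines were above it. The control mean was 3.44-fold below the parental array, with all 3 lines below. From high to low the order was Cr_large, Cr_small, parental and control, and the first 2 groups overlapped.

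Of 16 measured L1 family members, contactins, neuropilins and ankyrins, none was higher and 1 was lower in the Cr lines, with a median log2 difference of 0.03. For this and the other gene lists, 5.33% of all clusters were higher and 5.72% lower, with a median of 0.013. The L1 relatives NRCAM and CHL1 were at 4.73 and 4.75 in the Cr lines and at 4.72 and 4.75 in the control lines, below the median of all values. The lower gene was NRP1, a coreceptor of semaphorins and VEGF that also binds L1CAM, 1.55-fold lower (adjusted p = 0.0176). This call ended without control 1 or control 3, with an adjusted p up to 0.0803.

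ALCAM (CD166), which binds CD6 on T cells and itself on other cells, was lower in the Cr lines. Its levels were 10.01, 9.85 and 9.87 in Cr_large lines 1 to 3, 9.67, 10.04 and 9.28 in Cr_small lines 1 to 3, 10.72, 10.34 and 10.72 in control lines 1 to 3 and 10.22 in the parental cells. All 6 Cr lines were below the parental array, which was below all 3 control lines. The Cr lines were 1.75-fold lower than the control lines (log2 difference -0.81, standard error 0.16, adjusted p = 0.0169, limma). Leaving out control 1 or control 3 ended the call, at adjusted p of 0.0739 and 0.0781. The fold was 1.90 for the Cr_small lines (adjusted p = 0.0217) and 1.61 for the Cr_large lines (adjusted p = 0.0685, not called). The Cr_small call ended in 6 of 19 alternative settings, among them those without Cr_small 1, control 1 or control 3, at adjusted p up to 0.182, and the Cr_large difference was called in 7 of 19, among them those without Cr_small 2 or Cr_small 3, which enter that comparison through the shared spread. Differences from the parental array were 1.24-fold lower for Cr_large, 1.47-fold lower for Cr_small and 1.30-fold higher for control.

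MCAM (CD146), first known from melanoma and also a marker of vessel walls, did not separate the Cr and control lines. It was at 7.002, 7.91 and 8.42 in Cr_large lines 1 to 3 and at 7.06 in Cr_small 2, 7.53 in Cr_small 3 and 8.58 in Cr_small 1, which reached above and below the 7.78, 7.52 and 7.93 of control lines 1 to 3. The spread was 0.67 over the Cr lines and 0.20 over the control lines (SD, n = 6 and 3). The log2 difference was 0.0085 with a 95% interval from -0.88 to 0.89, so that a change within these bounds was not detectable here. Its sign turned when each array was centred on its median or when single lines were left out. The parental array, at 9.44, was above all 9 lines. The group means were 3.16-fold (Cr_large), 3.29-fold (Cr_small) and 3.25-fold (control) below it.

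Among 26 other measured adhesion molecules and ligands of the immunoglobulin superfamily, 1 was higher and 2 were lower in the Cr lines (median log2 difference 0.02). CADM4, an adhesion molecule of epithelia and glia, was 1.90-fold higher (adjusted p = 0.0263), and CADM3, its neural relative, was 1.87-fold lower (adjusted p = 0.00144). LAMA4, a laminin chain that binds MCAM, was 1.25-fold lower (adjusted p = 0.0247, limma). Its signal was low, at 4.90 in the Cr lines and 5.22 in the control lines, under the median of all values. The call of CADM3 held without any of the 9 lines. That of CADM4 ended without Cr_small 1, Cr_small 3 or any control line, and that of LAMA4 without Cr_large 2, Cr_small 1, Cr_small 3, control 1 or control 2, with adjusted p up to 0.0903 and 0.0761. With the methods' t-test after adjustment CADM4 was not called (adjusted p = 0.0657).

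NT5E (CD73) is the enzyme that makes adenosine from AMP outside the cell. It was at 11.43, 11.22 and 10.62 in Cr_large lines 1, 2 and 3, at 10.62, 10.82 and 10.45 in Cr_small lines 1, 2 and 3, at 9.76, 9.87 and 9.70 in control lines 1, 2 and 3 and at 8.29 in the parental cells. The 3 kinds of cells did not overlap: every Cr line was above every control line, and every control line was above the parental array. The Cr lines were 2.12-fold higher than the control lines (log2 difference 1.08, standard error 0.17, adjusted p = 0.00607, limma), and this held under all 19 alternative settings. The Cr_large lines were 2.48-fold higher (adjusted p = 0.00689) and the Cr_small lines 1.80-fold (adjusted p = 0.0350). The Cr_small call ended without any of the 3 Cr_small lines or of the 3 control lines, at adjusted p from 0.0582 to 0.112, and both that call and the Cr_large one ended with the methods' t-test after adjustment (0.0686 and 0.133). Above the parental array the group means were 6.95-fold (Cr_large), 5.05-fold (Cr_small) and 2.80-fold (control).

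Around NT5E, 16 genes linked to ATP and adenosine handling, or related to such genes, were measured. Not all of them act on these compounds or outside the cell. In the Cr lines 1 was higher and 2 were lower (median log2 difference 0.02). SLC29A1, a nucleoside transporter, was 1.56-fold higher (adjusted p = 0.00602), a call that held without any of the 9 lines. ADA, which turns adenosine into inosine, was 1.88-fold lower (adjusted p = 0.0160). ENPP2, autotaxin, was 2.15-fold lower (adjusted p = 0.0255). The call of ADA ended without control 3 (adjusted p = 0.0681), and that of ENPP2 without Cr_small 1, control 1 or control 3 (adjusted p up to 0.104) and with the methods' t-test after adjustment (0.0558). ENTPD1 (CD39), which makes the AMP that NT5E uses, was at 4.88 in the Cr lines and 4.86 in the control lines. The adenosine receptor ADORA2B was at 9.19 and 8.83 in the same order (adjusted p = 0.150).

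ENG (endoglin) is a coreceptor for ligands of the TGF-β and BMP family. It was at 9.54, 9.31 and 8.92 in Cr_large lines 1, 2 and 3, at 9.26, 9.09 and 9.18 in Cr_small lines 1, 2 and 3, at 9.14, 8.66 and 9.06 in control lines 1, 2 and 3 and at 8.26 in the parental cells. The Cr and control lines overlapped, and all 9 lines were above the parental array. The log2 difference of the Cr lines from the control lines was 0.26, with a 95% interval from -0.08 to 0.61 (adjusted p = 0.342, limma). The group means were 2.00-fold (Cr_large), 1.89-fold (Cr_small) and 1.62-fold (control) above the parental array, and the Cr_large one was just under 2-fold before rounding. Without Cr_large 3 it was 2.24-fold.

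Of the 16 measured genes of the endoglin receptor complex, 1 was higher and 5 were lower in the Cr lines, with a median log2 difference of -0.17. Among all clusters, 5.33% were higher and 5.72% lower. TGFBR2, the TGF-β type II receptor that the study followed up, was 3.43-fold lower (adjusted p = 0.000357). BMPR2, the BMP type II receptor, was 1.66-fold lower (adjusted p = 0.00793), and SMAD9, a BMP signal transducer, 1.67-fold lower (adjusted p = 0.0158). ACVR2A, an activin type II receptor, was 1.53-fold higher (adjusted p = 0.00345). The type I receptor TGFBR1 was at 10.24 in the Cr lines and 10.27 in the control lines. The SMAD9 call ended without control 1 or control 3 (adjusted p up to 0.0701) and with the methods' t-test after adjustment (0.0589), and those of the other 3 called genes named here held without any line.

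THY1 (CD90), a small protein anchored in the membrane by a glycolipid, differed little. It was at 10.93, 10.81 and 11.02 in Cr_large lines 1, 2 and 3, at 11.06, 10.37 and 11.002 in Cr_small lines 1, 2 and 3, at 11.13, 10.76 and 11.03 in control lines 1, 2 and 3 and at 10.88 in the parental cells. The groups overlapped, and the parental array lay within the range of each. The log2 difference of the Cr lines was -0.11, with a 95% interval from -0.48 to 0.26 (adjusted p = 0.758, limma). Without Cr_small 2, the lowest of all lines, it was 0.00045.

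Of 9 measured partners of THY1, 1 was higher and 3 were lower in the Cr lines (median log2 difference -0.13), beside 5.33% and 5.72% of all clusters. The lower ones were the integrin subunits ITGB3 (2.41-fold, adjusted p = 0.0236), ITGA5 (2.09-fold, adjusted p = 0.0153) and ITGAV (1.87-fold, adjusted p = 0.00113). The kinase FYN was 1.27-fold higher (adjusted p = 0.0329). The ITGAV call held without any line, those of ITGB3 and ITGA5 ended without control 1 or control 3 (adjusted p up to 0.102 and 0.0725), and that of FYN ended without any of 6 lines (Cr_large 2, Cr_small 1 to 3, control 2 and control 3; adjusted p up to 0.112). With the methods' t-test after adjustment, ITGB3 (adjusted p = 0.0501) and FYN (0.0552) were not called either, and FYN was not called with trended robust moderation (0.0601) or with arrays centred on their median (0.0538). None of the 5 measured negative markers of mesenchymal stromal cells passed the test, and PTPRC and CD34 were at 4.59 and 5.19 in the Cr lines and at 4.55 and 5.11 in the control lines. CD14, on the same list, was at 6.29 in the Cr lines and 6.59 in the control lines, over the median of all values.

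CD44 was at 11.72, 11.52 and 11.64 in Cr_large lines 1, 2 and 3, at 11.47, 11.94 and 11.94 in Cr_small lines 1, 2 and 3, at 11.45, 11.18 and 11.44 in control lines 1, 2 and 3 and at 10.72 in the parental cells. Cr_small 1 stood just above the highest control line, and all 9 lines were above the parental array. The Cr lines were 1.27-fold higher than the control lines, which did not pass the test (log2 difference 0.35, standard error 0.12, adjusted p = 0.116, limma). Without Cr_small 1 the difference passed, with a log2 difference of 0.42 and an adjusted p of 0.0199. Above the parental array the group means were 1.87-fold (Cr_large), 2.08-fold (Cr_small) and 1.55-fold (control). The cluster value summarizes probes over the whole gene, so the splice variants for which CD44 is known were not told apart.

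Of 14 measured genes that make, break down or bind hyaluronan, none passed the test in either direction. HAS2, a hyaluronan synthase, ranged from 4.93 to 9.17 over the Cr lines, and the control lines lay between 4.93 and 5.15 (log2 difference 2.12, standard error 0.94, adjusted p = 0.214). The parental cells were at 4.76. Some Cr lines were thus as low as the control lines and others far above them. Of 9 measured linkers, ligands and sheddases of CD44, 3 were lower and none was higher in the Cr lines (median log2 difference -0.40). Among all clusters, 5.72% were lower and 5.33% higher. MSN (moesin), which ties CD44 to actin, was 1.49-fold lower (adjusted p = 0.0150). The sheddases ADAM10 and ADAM17 were 1.34-fold (adjusted p = 0.00547) and 1.32-fold lower (adjusted p = 0.0402). The MSN call ended without control 1 or control 3 and the ADAM17 call without any of 7 lines (Cr_large 1 and 2, Cr_small 1 to 3, control 1 and control 3), with adjusted p up to 0.0716 and 0.142. ADAM17 was also not called with the methods' t-test after adjustment (adjusted p = 0.0636).

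EPCAM gave a low signal. Its main cluster was at 5.71, 5.19 and 5.07 in Cr_large lines 1, 2 and 3, at 5.18, 5.12 and 4.83 in Cr_small lines 1, 2 and 3, at 5.06, 4.84 and 5.001 in control lines 1, 2 and 3 and at 5.28 in the parental cells. All 10 values were under the median of all values. The log2 difference of the Cr lines was 0.22, with a 95% interval from -0.12 to 0.56 (adjusted p = 0.424, limma). The other cluster that the annotation gives to EPCAM reached 5.99 in Cr_large 1 and 5.90 in Cr_small 1 and was at 4.70 to 5.33 in the other Cr lines, against 4.58 to 4.72 in the control lines and 4.96 in the parental cells. It was 1.61-fold higher in the Cr lines and did not pass the test either (adjusted p = 0.165).

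Of 6 measured partners and relatives of EPCAM, 1 was higher in the Cr lines and none was lower (median log2 difference 0.06). This was CD82, a tetraspanin, at 9.59 ± 0.24 in the Cr lines, 8.15 ± 0.19 in the control lines (SD, n = 6 and 3) and 7.07 in the parental cells, 2.70-fold higher than in the control lines (adjusted p = 0.00104, held without any line). CLDN7, a claudin that binds EPCAM, was at 5.55 in the Cr lines and 5.62 in the control lines.

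PROM1 was near the floor of the arrays everywhere. Its 10 values lay between 4.65 and 4.80, where 10% of all values on the arrays were under 4.60. The log2 difference of the Cr lines was -0.016, with a 95% interval from -0.11 to 0.08 (adjusted p = 0.883, limma), and at this signal a difference in RNA would be compressed. Of 15 other measured progenitor surface markers, 1 was higher and 2 were lower in the Cr lines (median log2 difference 0.05). KIT, the receptor of stem cell factor, was at 8.07 ± 0.48 in the Cr lines, 6.46 ± 0.33 in the control lines (SD, n = 6 and 3) and 7.63 in the parental cells, which made the Cr lines 3.04-fold higher than the control lines (adjusted p = 0.00789). CD24, whose signal can include near-identical copies of the gene, was 10.5-fold lower (adjusted p = 0.00240). Its cluster, 8177222, has a number shortly after those of the Y-linked genes that the study listed as lower. Which copy gave the signal was not tested, so this fold may not be that of the marker gene itself. PROCR, the protein C receptor, was 1.31-fold lower (adjusted p = 0.0159), a call that ended without any of the 3 control lines (adjusted p up to 0.0600). The calls of KIT and CD24 held without any line. PROM2, the relative of PROM1, was at 5.43 in the Cr lines and 5.45 in the control lines.

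**Figure D2:**
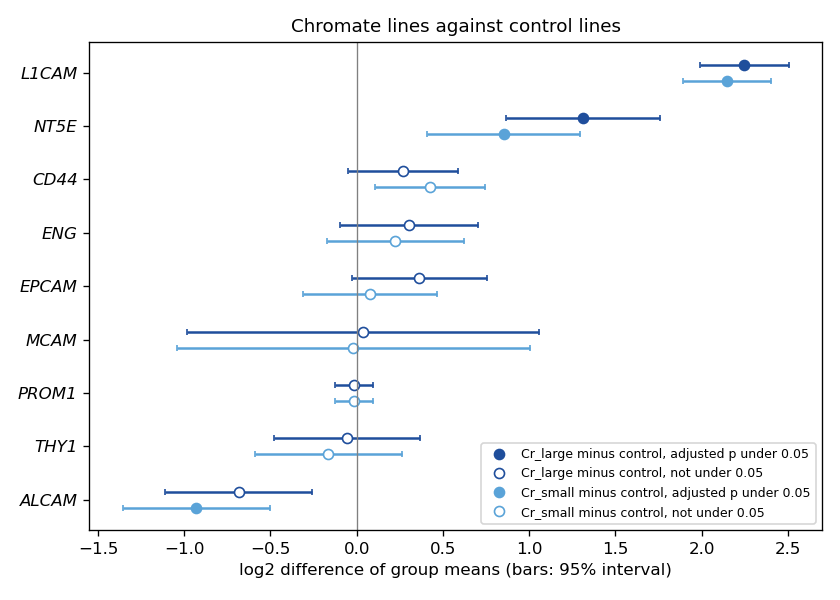
Difference of group means on the log2 scale (horizontal axis) with its 95% interval, for the Cr_large and the Cr_small lines against the control lines. L1CAM and NT5E are higher in both groups, ALCAM is lower with a call in the Cr_small lines only, and the intervals of the other 6 genes reach 0 in at least 1 group.

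Between the Cr_large and the Cr_small lines, none of the 9 genes differed at an adjusted p under 0.05 (limma), and neither did any of the 28869 clusters (background 0%), while 1266 clusters and 1 of the 9 genes had an unadjusted p under 0.05. That gene was NT5E, with a log2 difference of 0.46 and a 95% interval from 0.02 to 0.91 (adjusted p = 1). Cr_large 3 and Cr_small 1 both had 10.62, so the groups overlapped. For L1CAM the interval of the difference ran from -0.16 to 0.36, for ALCAM from -0.18 to 0.67, for CD44 from -0.47 to 0.16 and for MCAM from -0.97 to 1.08. These intervals leave room for differences of those sizes between the 2 kinds of colony. That a gene was called in one group and not in the other, as for ALCAM, is thus no difference between them.

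Set against the parental cells, for which the comparison rests on the fold alone, the 9 genes fell into a few patterns. NT5E was at least 2-fold above the parental array in the Cr_large, Cr_small and control lines, where 0.672%, 0.748% and 0.592% of all clusters were. MCAM was at least 2-fold below it in all 3 groups, where 1.16%, 1.23% and 0.533% were. L1CAM was at least 2-fold below it in the control lines, and these NT5E, MCAM and L1CAM folds stayed beyond 2 without any line of the group. CD44 passed 2-fold in the Cr_small lines, and was 1.97-fold without Cr_small 2 or Cr_small 3. Its difference from the 1.87-fold of the Cr_large lines was not called. PROM1, EPCAM, ALCAM and THY1 were within 2-fold in all groups, and ENG was so with all lines in. The 3 comparisons share 1 parental array, so a deviation of that array enters all of them alike. CD44, ENG and NT5E were above and MCAM was below the parental array in all 9 lines.

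**Figure D3:**
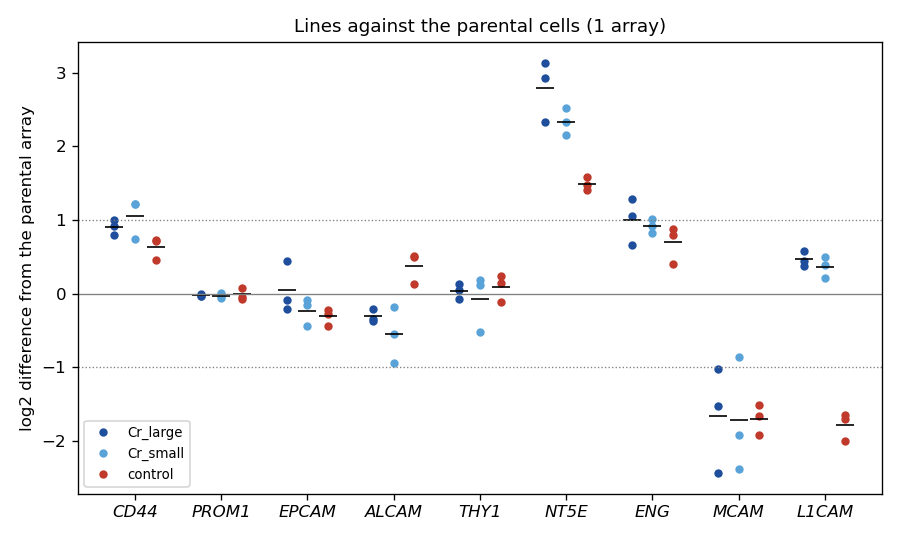
Difference of each line from the parental array on the log2 scale (points), with the mean of each group (dashes), for the Cr_large, Cr_small and control lines. Dotted lines mark 2-fold, NT5E lies above and the MCAM means lie below them in all groups, and L1CAM is beyond them in the control lines.

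The genes beside each member on its chromosome were set out as a description, taking the 10 nearest named genes on each side with a mean log2 intensity over 7. The shares of all clusters, 5.33% higher and 5.72% lower, include dim clusters, and no share over this level was counted. L1CAM lies on chromosome X, and its 20 neighbours from CETN2 to LAGE3 had a median log2 difference of -0.72 between the Cr and control lines, with 15 of 20 lower and none higher (adjusted p under 0.05, limma). This rests on the minimum level, since with none, where dim genes enter, the median was -0.021. L1CAM itself, at 2.20, was the highest of the 21. Its next expressed genes on either side, SSR4 and HCFC1, had log2 differences of -0.71 (adjusted p = 0.00142) and -0.08 (adjusted p = 0.821). NT5E on chromosome 6 was also the highest of 21, at 1.08 against a median of 0.00019 for its neighbours. ALCAM on chromosome 3 was the lowest of 21, at -0.81 against a median of 0.06, and none of its 20 neighbours was called. CD44 on chromosome 11, by contrast, ranked in the middle, with 0.35 against a median of 0.30 for its neighbours, of which 6 were higher and none lower. ENG on chromosome 9 likewise had 0.26 against 0.35, with 4 neighbours higher and none lower. With no minimum level the medians were 0.040 beside CD44 and 0.235 beside ENG. THY1 and MCAM are near neighbours on chromosome 11 and share 17 of their 20 neighbours. Of the 20 beside THY1, 8 were higher and 4 lower, and of the 20 beside MCAM, 8 were higher and 3 lower. Beside PROM1 on chromosome 4, 1 of 20 was higher and 8 were lower, with a median log2 difference of -0.27. Neighbours of EPCAM had 2 higher and 3 lower, and those of NT5E had 2 higher and 1 lower.

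**Figure D4:**
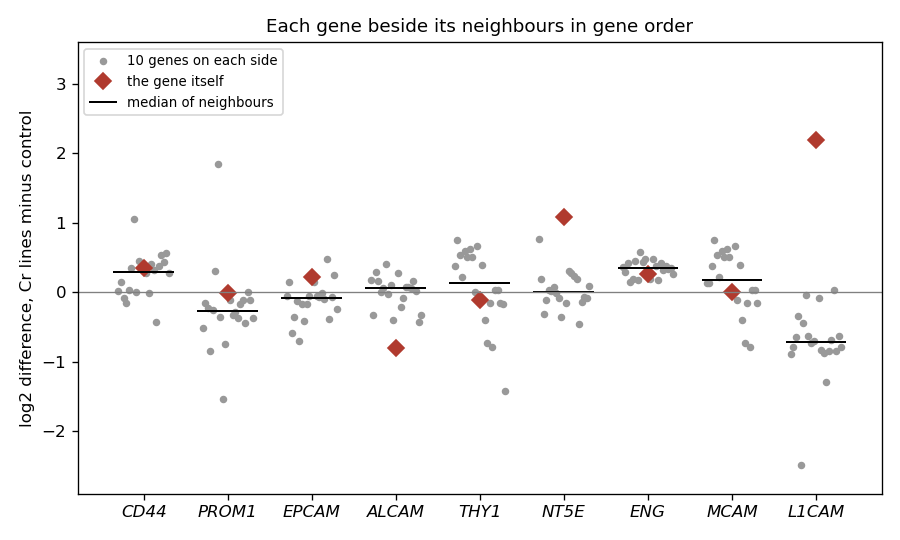
Log2 difference between the Cr lines and the control lines (vertical axis) of each gene (diamonds) and of its 10 expressed neighbours on each side in gene order (points), with the median of the neighbours (lines). L1CAM at 2.20 stands over neighbours with a median of -0.72 (-0.021 with no minimum level), and CD44 and ENG lie among theirs.

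For the 3 genes that differed, the named genes with the most similar pattern over the 10 arrays were sought among 2182 genes with a log2 range of at least 1. These correlations are descriptions over 10 arrays in which the groups are shared. L1CAM was most like DSC3, a desmosomal cadherin (r = 0.99), SMO, the signal transducer of hedgehog (r = 0.97), and EPHA4, an ephrin receptor (r = 0.97). DSC3 was at 10.17 ± 0.27 in the Cr lines, 4.91 ± 0.05 in the control lines (SD, n = 6 and 3) and 8.96 in the parental cells. SMO was at 7.31 ± 0.14, 6.45 ± 0.06 and 7.19 and EPHA4 at 7.97 ± 0.28, 5.49 ± 0.01 and 7.09 in the same cells, so that the parental level of each lay between the means of the Cr and control lines, as it did for L1CAM. NT5E was most like CCND1, cyclin D1 (r = 0.95), ENTPD7, a nucleotidase of intracellular membranes (r = 0.95), and SLX9 (r = 0.95). CCND1 was at 10.06 ± 0.28 in the Cr lines, 8.94 ± 0.30 in the control lines and 7.30 in the parental cells. ALCAM was most like SMARCA1, a chromatin remodeler (r = 0.92), CAMK1D, a kinase (r = 0.92), and IRF2BPL (r = 0.91). Among the 9 genes, NT5E and ENG had r = 0.86 over the 10 arrays and 0.73 over the 6 Cr lines, and NT5E and CD44 had 0.80 and -0.24.

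The promoters of the 3 genes that differed are shown because the 2 that were higher and the 1 that was lower can be compared by their sequence. RefSeq (GRCh38.p14) gave a promoter for 7 of the 9 genes, not for EPCAM or THY1. The 250 bases before the annotated start are written 5′ to 3′ on the strand of the gene, for L1CAM from chrX:153875945-153876194 (minus strand), for NT5E from chr6:85449833-85450082 (plus strand) and for ALCAM from chr3:105366659-105366908 (plus strand). Capitals mark matches on either strand to 6 motifs: the GC box GGGCGG, the AP-1 site TGANTCA, the E-box CACCTG, the TCF/LEF site CTTTGA, the hypoxia response element ACGTG and the SMAD element CAGACA.
L1CAM: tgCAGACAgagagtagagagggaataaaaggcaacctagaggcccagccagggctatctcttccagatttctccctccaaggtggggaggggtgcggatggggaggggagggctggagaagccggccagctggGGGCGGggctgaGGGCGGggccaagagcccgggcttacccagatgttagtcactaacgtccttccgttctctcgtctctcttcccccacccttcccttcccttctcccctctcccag
NT5E: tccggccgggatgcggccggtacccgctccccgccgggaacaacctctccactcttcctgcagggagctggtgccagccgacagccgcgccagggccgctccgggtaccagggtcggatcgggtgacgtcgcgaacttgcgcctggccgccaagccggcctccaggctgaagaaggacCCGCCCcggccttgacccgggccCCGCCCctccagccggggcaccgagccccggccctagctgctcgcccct
ALCAM: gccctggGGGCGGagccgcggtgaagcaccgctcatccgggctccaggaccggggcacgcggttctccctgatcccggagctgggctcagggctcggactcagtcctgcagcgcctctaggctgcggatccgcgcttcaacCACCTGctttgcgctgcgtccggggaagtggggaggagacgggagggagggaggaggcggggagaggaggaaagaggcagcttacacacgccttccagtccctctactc
L1CAM held 2 GC boxes and 1 SMAD element, NT5E 2 GC boxes and ALCAM 1 GC box and 1 E-box. A GC box was found in 42.6% of 35116 promoters, an E-box in 17.5% and a SMAD element in 13.6%. AP-1 sites (6.57%), TCF/LEF sites (11.2%) and hypoxia response elements (18.5%) were not found in these 3 windows. CpG dinucleotides numbered 8 in L1CAM, 28 in NT5E and 20 in ALCAM, against a median of 11 over all promoters. A match is a description of letters in this window and says nothing about binding.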

How the data were processed

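There were 10 arrays, 9 of lines and 1 of the parental cells. The deposited values are intensities that the authors made with RMA16 and quantile normalization in GeneSpring v11. They are linear, from 20.0 to 16980, and carry no baseline transformation, although the methods name one. The files state no scale and the analysis was planned for log2 or linear values, so log2 was taken. RMA16 compresses folds of dim genes, and precision is limited by how many arrays there were.

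Clusters were named by the array's annotation table, in which 19310 of 28869 had 1 symbol, 1752 several and 7807 none. The model, run in limma 3.58.1 (R 4.3.3) on all clusters, had a term for every group (6 residual and 1.96 prior degrees of freedom). Calls were made at 0.05 after Benjamini-Hochberg adjustment of the p-values of all clusters. Folds are differences of mean log2 values on the linear scale. Groups were compared with the parental array by fold alone.

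The 9 genes and the 15 gene lists around them (156 of 174 genes measured) were chosen with earlier results of these data known. Genes named beside the 9 are, of each list, up to 4 called genes with the largest change, and for each called member the 3 most similar genes. List genes with no call that are named were chosen after their values were seen. Neighbours follow RefSeq gene order in GRCh38.p14, which also gave the promoters. On simulated data for the Cr lines against control, over 28869 clusters, 35 of 67 clusters changed 1.5-fold, 51 of 67 changed 2-fold and 65 of 66 changed 5-fold were called, with 12 false calls among 163. The changed clusters were all brighter than EPCAM and PROM1 and far fewer than the 3190 called in the data. The simulated noise was independent, so these rates are not those of the 9 genes. Lines were treated as unpaired, and residuals of same-numbered lines correlated from -0.15 to 0.10 in 9 pairs. Differently numbered lines were not set beside them, so this cannot exclude a pairing by number. No 2 arrays held identical values. Alternatives were the methods' t-test, trended robust moderation, only the compared groups, filters on dim or unnamed clusters, 2 normalizations, the mean of a gene's clusters, a replicate block and leaving out each line. Plots came from matplotlib 3.10.9 under Python 3.11.15.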

Additional observations from a re-analysis of the deposited data

Results flagged for a closer look

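THY1 in Cr_small 2, at 10.37, stood apart from the other 5 Cr lines, of which the next was at 10.81. The gap was 0.636 of the whole range of the 6 Cr lines, above the 5% critical value of Dixon's test for 6 values. Chance flags about 1 in 20 groups, and 9 genes were looked at.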

How the results depend on the processing

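Of 36 differences (9 genes, 4 contrasts), 16 kept their direction and side of the threshold under every alternative that gave a value, L1CAM against control in all 3 contrasts and NT5E in the 6 Cr lines among them. PROM1 had no value without the dimmest 25% of clusters. The number of the 9 genes called was 1 in place of 3 for Cr_small and 1 in place of 2 for Cr_large where the methods' t-test was used with Benjamini-Hochberg adjustment. It ranged from 1 to 3 for Cr_small over the left-out lines, with 1 without control 1 or control 3. Of the list genes, 28 in place of 9 were higher in the Cr lines with the methods' t-test at an unadjusted p. After adjustment 6 were higher. Over the left-out lines alone, those lower ranged from 9 to 19, with 9 in place of 19 without control 1 or control 3. With the adjusted t-test 14 were lower. The calls it ended were those of ADAM17, ENPP2, SMAD9, ZFYVE16, CADM4, ITGB3, FYN and KRT7. For the left-out lines, fewer lines in a group were the only change. Some differences near 0 turned sign, and none was called. MCAM was at -0.028 in the Cr lines and -0.00028 in Cr_large with arrays centred on their median, and at 0.017 in Cr_small after quantile normalization. Over the left-out lines MCAM ranged from -0.21 to 0.20 (Cr lines), -0.45 to 0.31 (Cr_small), -0.28 to 0.42 (Cr_large) and -0.27 to 0.49 (Cr_large against Cr_small), PROM1 from -0.044 to 0.029, -0.045 to 0.028, -0.043 to 0.030 and -0.014 to 0.018 in the same order, THY1 from -0.22 to 0.00045, -0.29 to 0.058, -0.16 to 0.019 and -0.12 to 0.23, and ENG from -0.064 to 0.25 for Cr_large against Cr_small. The cause was not tested.

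With the line number as a replicate block, which the labels do not say marks a shared batch, 1 call among the 9 genes changed, that of ALCAM in the Cr_small lines (log2 difference -0.93, adjusted p = 0.0537). Among the list genes named above, the calls of ADAM17, ZFYVE16, LAMA4 and FYN ended with the block (adjusted p = 0.0737, 0.0924, 0.0522 and 0.0743, limma). The number of the 9 genes called in the 6 Cr lines was 3 with the block and 3 without it. The median of the neighbours of L1CAM was -0.78 with 20 genes on each side.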
